A study of Mus musculus with 2 samples.

Results

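The 10 mouse genes Smarcd1, Smarcd2, Smarcd3, Actl6a, Ss18, Ss18l1, Bcl7a, Bcl7b, Bicra and Bicral, which encode accessory subunits of SWI/SNF chromatin remodelling complexes, are described here by the Arid1b peaks near them. A peak was taken where any part of it lay inside a gene or up to 10 kb from its ends (a nearby peak), which gave 15 of the 8318 peaks in the list. Arid1b-bound chromatin was precipitated and sequenced (ChIP-seq), with 1 ChIP library made with an Arid1b antibody and 1 input library of chromatin without antibody. Both came from cultured primary dental mesenchyme of wild-type mice of the strain C57BL/6, taken from the apical end of first mandibular molars between postnatal days 3.5 and 7.5 and grown in culture medium with 10% serum. The title and design text of the series name Arid1a and a conditional knockout of it by Gli1-CreER, whereas both sample labels name wild-type cells and the antibody label names Arid1b, so the target is given as the sample labels state it. With 1 library in each group there was no replicate check, and the values describe these 2 libraries.

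SWI/SNF complexes use the energy of ATP to slide or evict nucleosomes, and they are built from an ATPase, a core and exchangeable accessory subunits. Arid1b and its paralogue Arid1a are alternative large subunits of the canonical BAF class. The accessory subunits come in small paralogue families from which a complex takes a single member, and exchanges within these families accompany differentiation, as when neural progenitors become neurons. Bicra and Bicral belong to the non-canonical BAF class, which holds no ARID subunit.

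Of the 15 peaks, 12 reached within 1 kb of an annotated end of a protein-coding gene, be it the member or a neighbour, beside 63.4% of all peaks. Of the 14 on chromosomes with listed start sites, 12 had the summit within 1 kb of one, beside 60.6% of all peaks there. The 15 peaks were taken for lying in or within 10 kb of a protein-coding gene, a rule not applied to all peaks. The shares therefore have unlike bases. In 4 of the 6 members with a RefSeq promoter window (build GRCm38.p6, the assembly that mm10 names), a peak covered part of the 250 bases before the listed start site, which held for 9.21% of the 21263 windows of protein-coding genes. As the members were chosen with the peaks known, these shares are descriptions and were not tested. The windows below show the Smarcd family, whose paralogues differed in this respect, and Bcl7b, whose window held the most kinds of searched motif. Each runs 5′ to 3′ on the strand of the gene and ends at the base before the start site, and capitals mark bases inside an Arid1b peak.
Smarcd1, chr15:99702037-99702286, plus strand: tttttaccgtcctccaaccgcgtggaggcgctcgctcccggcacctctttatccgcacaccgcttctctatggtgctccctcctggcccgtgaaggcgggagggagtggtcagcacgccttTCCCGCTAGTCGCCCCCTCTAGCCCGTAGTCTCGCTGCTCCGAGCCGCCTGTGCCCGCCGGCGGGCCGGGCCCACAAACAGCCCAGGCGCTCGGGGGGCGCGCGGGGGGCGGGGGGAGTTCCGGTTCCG
Smarcd2, chr11:106267633-106267882, minus strand: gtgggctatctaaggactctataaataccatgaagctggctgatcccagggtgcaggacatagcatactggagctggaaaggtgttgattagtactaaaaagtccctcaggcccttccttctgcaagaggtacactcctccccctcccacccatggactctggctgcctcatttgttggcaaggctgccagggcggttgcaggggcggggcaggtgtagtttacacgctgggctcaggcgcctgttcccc
Smarcd3, chr5:24602003-24602252, minus strand: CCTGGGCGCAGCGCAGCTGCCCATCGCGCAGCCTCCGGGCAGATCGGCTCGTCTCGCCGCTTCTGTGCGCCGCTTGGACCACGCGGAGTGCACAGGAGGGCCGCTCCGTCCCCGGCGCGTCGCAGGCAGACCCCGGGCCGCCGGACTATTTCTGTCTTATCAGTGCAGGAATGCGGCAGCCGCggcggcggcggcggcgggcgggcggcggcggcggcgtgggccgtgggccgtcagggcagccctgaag
Bcl7b, chr5:135168122-135168371, plus strand: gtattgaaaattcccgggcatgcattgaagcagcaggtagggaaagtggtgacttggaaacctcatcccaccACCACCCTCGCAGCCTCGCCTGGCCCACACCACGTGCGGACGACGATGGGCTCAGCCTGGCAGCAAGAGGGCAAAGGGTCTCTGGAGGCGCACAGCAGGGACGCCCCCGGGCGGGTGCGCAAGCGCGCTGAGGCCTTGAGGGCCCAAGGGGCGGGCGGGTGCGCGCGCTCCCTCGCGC
The peak covered 129 of the 250 bases at Smarcd1, 183 at Smarcd3 and 178 at Bcl7b. It covered 0 at Smarcd2 and, among the windows not printed, 0 at Actl6a and 60 at Ss18l1. The listed start sites of Smarcd2 and Smarcd3 lie inside the annotated gene spans, and so do their windows. At Smarcd1 and Bcl7b the covered bases ran up to the start site, while at Smarcd3 they were the ones farther from it.

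The fold enrichment used below is the authors' ratio of the ChIP over the expected input level at the peak summit. The ChIP pileup (fragments stacked at the summit) and the expected input level behind each fold were solved from the fold together with its p-value, and each interval is an exact Poisson 95% interval of that pileup, the input level being taken as known. These intervals cover counting error only, and sequenced fragments are not necessarily independent molecules. Over all 8318 peaks the median fold was 3.72 (quartiles 3.30 and 4.32), the median pileup was 38 fragments (quartiles 34 and 44), and the genome background of the input was 8.68 fragments. Of 6 dental mesenchyme regulator genes, 5 (Msx1, Pax9, Lhx8, Dlx1 and Dlx2, but not Lhx6) had a peak within 1 kb of a gene end. The same held for 0 of 7 markers of epithelium, endothelium and blood (Krt14, Epcam, Cdh1, Pecam1, Cdh5, Ptprc and Cd68). It held for 22.2% of all protein-coding genes. With a peak inside the gene or up to 10 kb away the counts were 5 of 6 and 1 of 7, beside 31.7% of all protein-coding genes, the 1 being Cd68 of macrophages with a fold of 5.39 (4.11 to 6.96). Neither count measures expression. Both lists were chosen with earlier results of these data known, so the counts are descriptions and not a check of the tissue label. The strongest nearby peak of Dlx1 is also that of Dlx2.

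All 10 members had at least 1 nearby peak, and 8 of the 10 had one within 1 kb of an annotated gene end. Of all 21887 protein-coding genes, 31.7% had a nearby peak and 22.2% had one within 1 kb of an end. The members were chosen with the peaks already known, so their count is a description and not a test. There were 5 members with 1 peak and 5 with 2. Among the 6943 protein-coding genes with any such peak, 64.2% had 1 and 85.1% had at most 2. The fold of the 15 peaks had a median of 3.60 (quartiles 3.13 and 5.01) and ran from 2.41 to 9.12. That median lay just under the 3.72 of all peaks, with 6 of the 15 peaks above it, 8 below it and 1 equal to it. Among peaks with a -log10 q of at least 10 the counts were 6 members with a nearby peak and 4 with one at a gene end, beside 16% and 10.5% of all protein-coding genes, and among peaks whose input lay at the genome background they were 5 and 5, beside 17.4% and 11%.

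**Figure D1:**
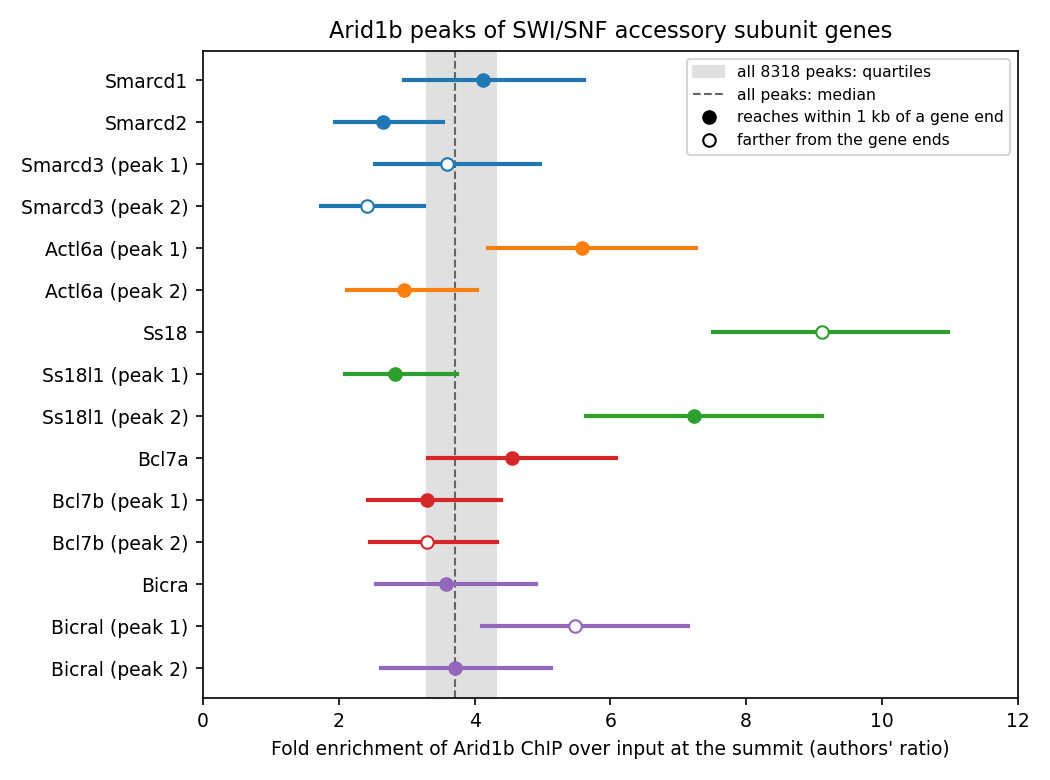
Fold enrichment of Arid1b ChIP over input (x axis) at each of the 15 peaks of the accessory subunit genes (rows), with exact Poisson 95% intervals as bars, colours for gene families, filled points for peaks within 1 kb of a gene end, and the median and quartiles of all 8318 peaks as a dashed line and a grey band. The intervals of 4 peaks, at Ss18, Ss18l1, Actl6a and Bicral, lie above the median of 3.72, and those of 2 peaks, at Smarcd2 and Smarcd3, lie below it.

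The Ss18 family carried the strongest peaks of the 10 genes. Ss18 encodes a BAF subunit that is fused to SSX proteins in human synovial sarcoma, and Ss18l1 (also called CREST) takes its place in neuronal complexes. Ss18l1 had 2 peaks, of which the main one covered a start region shared with a neighbour. This peak, chr2:180042464-180043045, had a pileup of 69 ChIP fragments (53.7 to 87.3) over an input level of 8.68, which gave a fold of 7.23 (5.65 to 9.12), rank 118. The summit lay 105 bp downstream of the start site. The second peak, chr2:180041828-180042273, had 47 ChIP fragments (34.5 to 62.5) over an input level of 16.0 and a fold of 2.82 (2.09 to 3.73). Its summit lay 479 bp upstream of the Ss18l1 start and 460 bp inside the neighbour Psma7, which encodes an alpha subunit of the proteasome. Psma7 and Ss18l1 are transcribed from opposite strands, with listed start sites 19 bp apart and 18 bp between the annotated genes. All 18 bases of that gap lay in the main peak. On the plus strand they are, at chr2:180042465-180042482:
Psma7 to Ss18l1 gap: GGCGTCAGGGGGACGTGC
Peaks at a start region shared by neighbours cannot be given to either gene from these data.

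At Ss18 the single peak, chr18:14682374-14683298, had a pileup of 111 ChIP fragments (91.3 to 134) over an expected input level of 11.3. Its fold was 9.12 (7.52 to 11.0), which ranked 32 of 8318. The summit lay inside the gene, 1496 bp from the high-coordinate end, and the peak did not reach within 1 kb of that end. It was wider than 94.7% of all peaks, at 925 bp. The fold intervals of the Ss18 peak and of the main Ss18l1 peak overlapped. Their pileup intervals did not, with the higher pileup at Ss18 and the higher input level there too.

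Actl6a had a strong peak just downstream of its start site. The gene encodes BAF53A, an actin-related subunit of progenitor cells that Actl6b replaces in neurons, and it also belongs to the INO80 and TIP60 complexes. The peak at chr3:32708611-32708991 had 53 ChIP fragments (39.7 to 69.3) over an input level of 8.68 and a fold of 5.58 (4.20 to 7.26). A second peak, chr3:32709085-32709376, had 38 fragments (26.9 to 52.2) over 12.2 and a fold of 2.96 (2.11 to 4.03). Their summits lay 263 and 663 bp downstream of the listed start site. The fold interval of the first peak began above the upper end of the second, with the input levels taken as known. Their pileup intervals overlapped, and the difference between the 2 peaks was not tested. The paralogue Actl6b had no nearby peak.

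The 3 Smarcd genes had ChIP pileups with overlapping intervals, over a lower input level at Smarcd1 than at Smarcd2 and Smarcd3. They encode BAF60A (Smarcd1), BAF60B (Smarcd2) and BAF60C (Smarcd3), alternative subunits that bind transcription factors. Smarcd2 is known for its part in granulocyte formation and Smarcd3 for heart and skeletal muscle development. At the peak nearest to a start site or gene end, the pileup was 39 fragments at Smarcd1 (27.7 to 53.3), 44 at Smarcd2 (32.0 to 59.1) and 40 at Smarcd3 (28.6 to 54.5). The expected input level was 8.68 at Smarcd1, the genome background, and 16.0 at both Smarcd2 and Smarcd3. The folds were accordingly 4.13 (2.97 to 5.61), 2.65 (1.94 to 3.53) and 2.41 (1.74 to 3.26) for Smarcd1, Smarcd2 and Smarcd3. Each of the 3 fold intervals overlapped the other two, and the differences between them were not tested. The intervals at Smarcd2 and at Smarcd3 lay wholly below the median fold of all peaks.

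The 3 Smarcd peaks also sat differently relative to the genes. At Smarcd1 the peak, chr15:99702158-99702434, straddled the start site with its summit 17 bp downstream. At Smarcd3 the peak chr5:24602070-24602757 had its summit 169 bp upstream of the listed start site, which lies inside the annotated span, so that neither gene end was within 1 kb. The other Smarcd3 peak, chr5:24586800-24587066, lay 5556 bp outside the gene, at the start of Chpf2, a chondroitin synthesis gene whose span overlaps Smarcd3, with its summit 159 bp downstream of the listed start site of Chpf2. It had 35 ChIP fragments (24.4 to 48.7) over an input level of 9.01 and a fold of 3.60 (2.54 to 4.96). With a window of 5 kb, or with peaks counted for the nearest gene, the highest fold at Smarcd3 was therefore 2.41 in place of 3.60. At Smarcd2 the peak, chr11:106272400-106272975, lay at the high-coordinate end of the annotated gene, with its summit 368 bp inside that end and 4998 bp upstream of the listed start site. That gene end is 21 bp from Tcam1, a testicular cell adhesion gene, whose annotated low-coordinate end lay 390 bp from the summit.

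**Figure D2:**
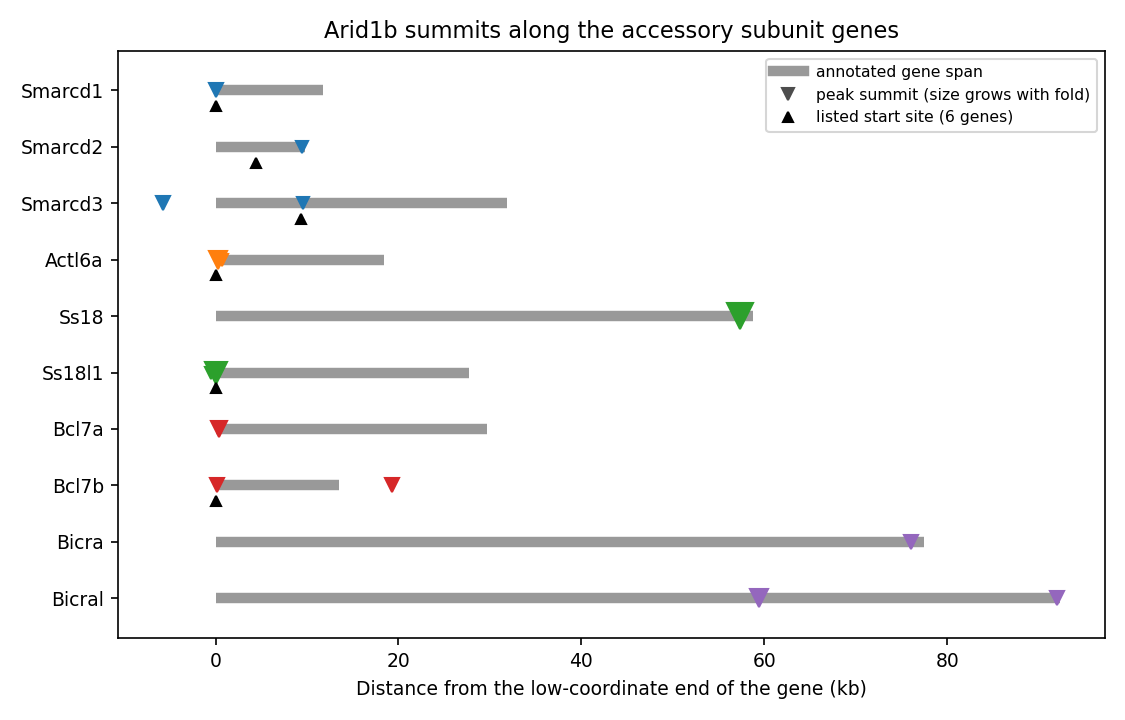
Position of the Arid1b summits (coloured triangles, larger for higher fold) along each accessory subunit gene (grey bars), as distance in kb from the low-coordinate end, with black triangles at the start sites listed for 6 genes. Of the 15 summits, 12 lie inside the gene, and the 3 outside are a Smarcd3 peak, an Ss18l1 peak and a Bcl7b peak.

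The Bcl7 genes encode small subunits of the complexes, and Bcl7a was found through a rearrangement in human B-cell lymphoma. At Bcl7a the single peak, chr5:123344517-123344990, had 43 ChIP fragments (31.1 to 57.9) over an input level of 8.68, a fold of 4.54 (3.32 to 6.08). Its summit lay 385 bp inside the low-coordinate end, where the lncRNA gene Gm15860 overlaps Bcl7a and has a listed start site 309 bp from the summit. At Bcl7b the peak chr5:135168194-135168707 had 45 fragments (32.8 to 60.2) over 13.0 and a fold of 3.30 (2.42 to 4.39), with its summit 167 bp downstream of the start site. The second Bcl7b peak, chr5:135186880-135187982, had 50 fragments (37.1 to 65.9) over 14.5 and a fold of 3.29 (2.46 to 4.32). It lay 5028 bp outside Bcl7b, with its summit 355 bp inside Baz1b, a gene of the ISWI remodelling complexes. The intervals of Bcl7a and Bcl7b overlapped. The third paralogue, Bcl7c, had no nearby peak.

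Bicra and Bicral (formerly Gltscr1 and Gltscr1l) are the longest of the 10 genes at 77476 and 92327 bp, and they encode alternative subunits of the non-canonical BAF complex. The Bicra peak, chr7:16046604-16047549, had 37 ChIP fragments (26.1 to 51.0) over an input level of 9.60 and a fold of 3.58 (2.55 to 4.90). It reached within 1 kb of the high-coordinate end, but its summit lay 1388 bp inside and within the annotated span of the lncRNA gene Gm32059. Bicral had a peak near its high-coordinate end, chr17:46890043-46890287, with 35 fragments (24.4 to 48.7) over 8.68 and a fold of 3.72 (2.62 to 5.13). Tbcc, a tubulin folding cofactor gene, begins 178 bp beyond that end. The stronger Bicral peak, chr17:46856299-46857740, lay deep inside the gene with its summit 32892 bp from the nearest end. It had 52 fragments (38.8 to 68.2) over 8.68 and a fold of 5.47 (4.11 to 7.15), and its 1442 bp made it the widest of the 15. The fold intervals of both Bicral peaks overlapped each other and that of Bicra.

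**Figure D3:**
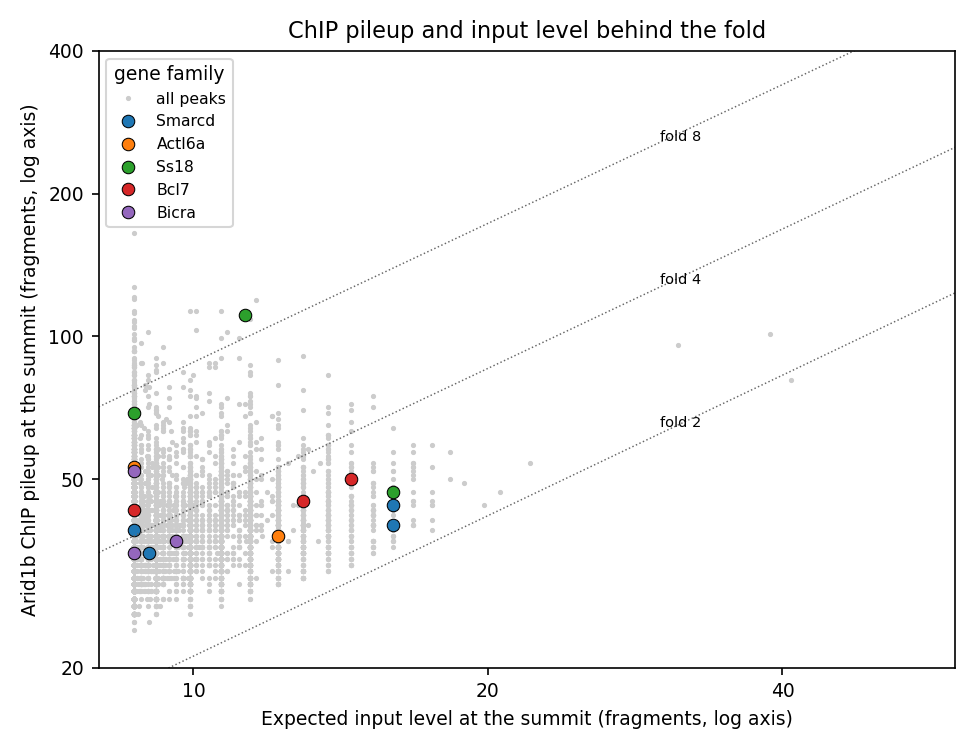
Arid1b ChIP pileup (y axis) against the expected input level (x axis) at the summit, both in fragments on log axes, for all peaks (grey) and the 15 peaks of the accessory subunit genes (coloured by family), with dotted lines at folds of 2, 4 and 8 and 9 peaks beyond the axes not drawn. The 15 pileups run from 35 to 111, and the input levels from 8.68 to 16.0.

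Ranked by the strongest peak of each gene, the order was Ss18, Ss18l1, Actl6a, Bicral, Bcl7a, Smarcd1, Smarcd3, Bicra, Bcl7b and Smarcd2. Smarcd3 was placed by the peak at the start of Chpf2, 5556 bp outside the gene, and the pairs below use that peak. By the peak at its own start site, with a fold of 2.41 (1.74 to 3.26), Smarcd3 would stand last. Every member overlapped its neighbour in this order within the counting intervals. Of the 45 pairs of members, 15 had intervals that did not overlap, of which 8 set Ss18 and 5 set Ss18l1 above lower members. The other 2 set Actl6a and Bicral above Smarcd2. The median of the strongest folds was 4.34, beside 4.03 (quartiles 3.51 and 4.65) over the 6943 protein-coding genes with a peak. A fold of at least 5 was reached by 4 of the 10 members, all of which had a peak. It was reached by 1140 protein-coding genes, which are 5.21% of all 21887. That base includes genes without a peak, and only 6943 had one.

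The pileup intervals of 11 of the 15 peaks included the median pileup of all peaks, and those of the other 4 lay above it. These 4 were the Ss18 peak, the main Ss18l1 peak, the first Actl6a peak and the deep Bicral peak, and they were also the ones whose fold intervals lay above the median fold. The input level was at the genome background at 6 of the 15 peaks and above it at 9, beside 47.2% of all peaks at background. The peaks were wide for the list, with a median of 514 bp (245 to 1442) against 307 bp (quartiles 237 and 452) over all peaks, and 11 of the 15 were wider than that median. The lowest -log10 q among them was 3.88, at the Smarcd3 start site, and the highest was 63.0, at Ss18.

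Summits at the listed start sites lay mostly on the downstream side. For 5 of the 6 members with a listed start site a peak reached within 1 kb of it, which held for 23.9% of the 17492 protein-coding genes with a promoter window. The exception was Smarcd2, whose listed start site lies inside the annotated gene, away from the gene end where its peak lay. The 7 summits within 1 kb of a member's own start site were at -479, -169, +17, +105, +167, +263 and +663 bp, and 5 of them were downstream. The one at -479 bp, of Ss18l1, lay closer to the start site of Psma7, at +460 bp and so downstream of it. Over all 4894 peaks with a summit within 1 kb of a listed start site, positions were taken from the nearest one and not from a chosen gene. Their median was +185 bp (quartiles -26.8 and +319), and 73.9% were downstream.

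**Figure D4:**
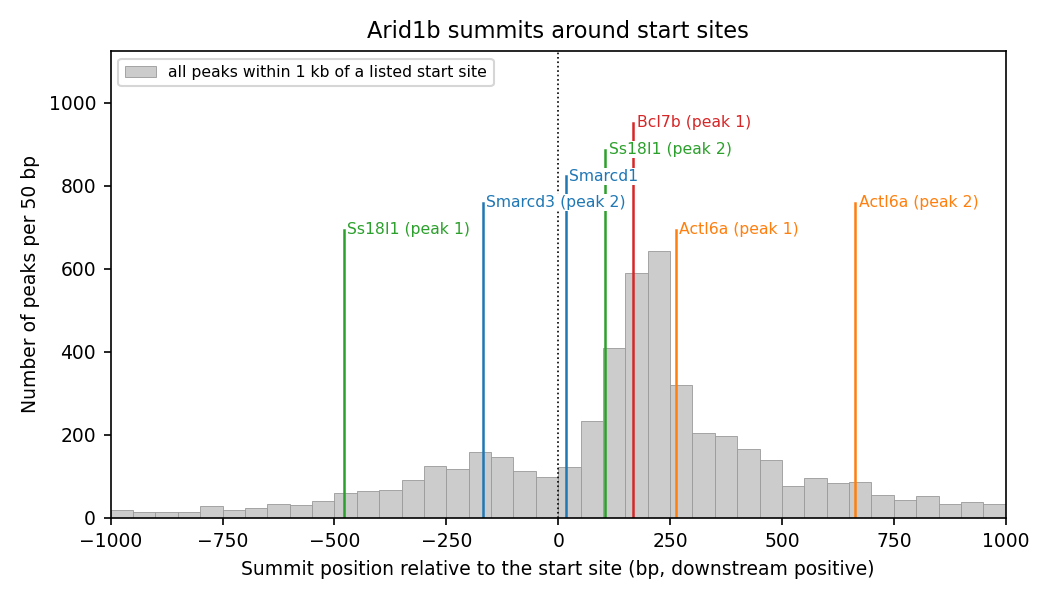
Number of Arid1b peaks per 50 bp (y axis) by summit position (x axis, bp, downstream positive) for all peaks within 1 kb of a listed start site. Grey bars are relative to the nearest listed start site. Coloured lines mark the 7 summits of Ss18l1, Smarcd3, Smarcd1, Bcl7b and Actl6a, each relative to the start site of the member itself. The member summits at +105, +167 and +263 bp fall near the grey mode, and those of Ss18l1 at -479 and Smarcd3 at -169 bp lie upstream of their own start sites. The former lies at +460 bp from the start site of Psma7, its nearest.

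The promoter windows of the members were rich in G and C except that of Smarcd2. That window lies inside the annotated gene, and the Smarcd2 summit lay 4998 bp upstream of the listed start site. The Smarcd2 values therefore describe the listed start site and not the gene end where the peak lay. Over the 250 bases before the start site, the GC content was 71.2% at Smarcd1, 56.4% at Smarcd2, 76.0% at Smarcd3, 64.8% at Actl6a, 70.4% at Ss18l1 and 67.6% at Bcl7b, beside a median of 52.4% over all 32851 windows. The ratio of observed to expected CpG was 0.201 at Smarcd2 and between 0.737 (Bcl7b) and 1.06 (Smarcd3) at the others. Its median over all windows was 0.373. Of all windows, 21263 are of protein-coding genes. The windows with a low ratio and the windows without a start-site peak were not set against each other over all genes.

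Of 8 short motifs searched on both strands of these windows, GGGCGG, the core of the GC box that Sp factors bind, was found in all 6 members and in 32.7% of all windows. All windows include those of genes that are not protein-coding. The shares were not matched to the GC content of the members, whose windows were mostly richer in G and C. It stood inside the peak-covered bases at Smarcd1 and Bcl7b and outside them in the other four. The E-box CACGTG and the TGCGCA word occurred in Bcl7b alone of the 6, at 148 and 63 bases before the start site, and in 6.02% and 6.43% of all windows. TATAAA occurred at Smarcd2, 231 bases before its start site, and in 12.4% of windows. TGANTCA (6.75% of windows), TGACGTCA (1.55%), CCAAT (33.8%) and CCGGAAGT (2.88%) were in none of the 6. No 2 different motifs overlapped. A match describes these letters and not a bound site.

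Peaks were also found at other genes of the complexes. Of 19 other SWI/SNF genes, 13 had a nearby peak and 10 had one within 1 kb of a gene end. The shares over all protein-coding genes were 31.7% and 22.2%. Their highest folds were at Arid1b (6.41, 4.96 to 8.15), Arid1a (6.40, 4.92 to 8.19), Arid2, the ARID subunit of the PBAF class (5.63, 4.29 to 7.27), and the core scaffold gene Smarcc2 (5.05, 3.78 to 6.61). The Arid2 peak lay outside that gene and more than 1 kb from its end, and the highest Arid2 fold at a gene end was 4.85. The interval of the Ss18 peak overlapped those of Arid1b and Arid1a and lay above those of Arid2 and Smarcc2. No nearby peak was listed for Smarcb1, a core subunit gene, Brd9, a bromodomain subunit gene of the non-canonical complex that holds Bicra or Bicral, the PHD-finger genes Dpf1 and Dpf3, Actl6b and Bcl7c. The median of the strongest folds was 4.34 in the accessory genes and 4.34 in the 13 others with a peak. The difference between the 2 lists was not tested.

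Genes of other remodelling complexes carried peaks as well. In the NuRD complex, which joins remodelling to histone deacetylation, 10 of 12 genes had a nearby peak and 9 had one at a gene end. The counts were 4 and 2 of 6 for ISWI, and 4 and 4 of 9 for INO80, SRCAP and TIP60. The only Baz1b peak was also counted at Bcl7b. Actl6a, which also belongs to INO80 and TIP60, was counted among the accessory subunit genes alone. Of all protein-coding genes, 31.7% had a nearby peak and 22.2% had one at a gene end. The highest folds were 11.3 (9.25 to 13.6) at Baz2a, for a peak 7663 bp outside that gene, 6.76 at Hdac2, 6.71 at Gatad2a and 5.68 at Gatad2b. No peak was found for 9 of the 27 genes, Mta3, Rbbp7, Smarca5, Smarca1, Actr5, Ruvbl1, Actr6, Yeats4 and Actr8. The shares with a nearby peak were 83.3% for NuRD, 66.7% for ISWI and 44.4% for INO80, SRCAP and TIP60. They stood beside 100% for the accessory subunit genes and 68.4% for the other SWI/SNF genes. The members were chosen with the peaks known, so the 100% is a description. The other SWI/SNF list includes Actl6b and Bcl7c, paralogues of Actl6a and of Bcl7a and Bcl7b, and neither had a nearby peak. The lists were too small to order them, and no test was made.

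**Figure D5:**
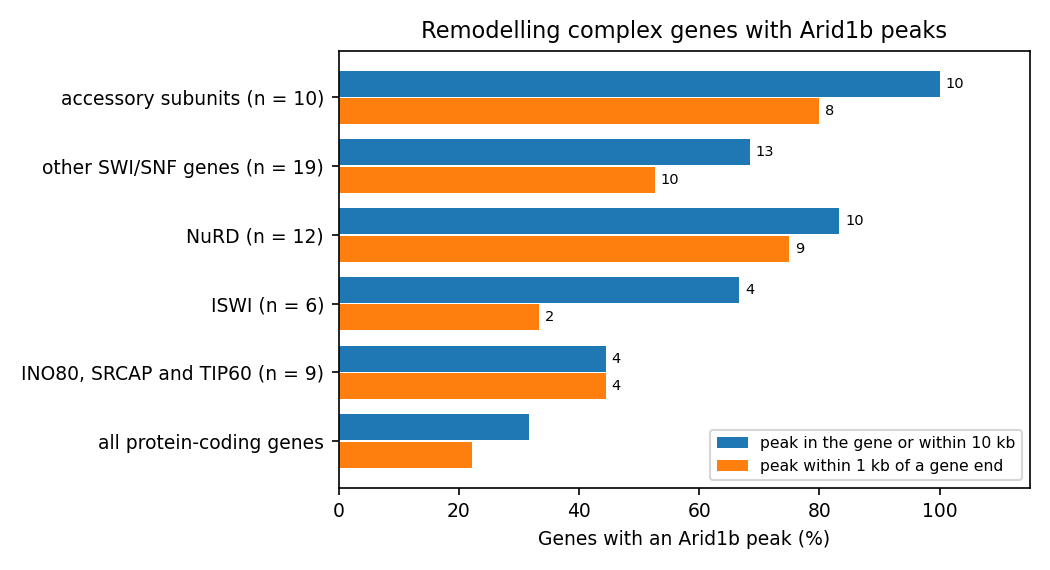
Share of genes (x axis, %) with an Arid1b peak inside the gene or up to 10 kb away (blue) and within 1 kb of a gene end (orange) for the accessory subunit genes, the other SWI/SNF genes, 3 groups of other remodelling complexes and all protein-coding genes, with the number of genes at the bars of each list. The accessory subunit bars stand at 10 and 8 of 10 genes, against 31.7% and 22.2% of all protein-coding genes. The other SWI/SNF genes include Actl6b and Bcl7c, paralogues of members, which had no nearby peak.

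Several members lie close to another gene. For 4 of the 10, Smarcd2, Actl6a, Ss18l1 and Bicral, another protein-coding gene lay within 1 kb without overlap, which was the case for 14.0% of all protein-coding genes. The gaps were 21 bp at Smarcd2, 523 bp at Actl6a (to Mrpl47), 18 bp at Ss18l1 and 178 bp at Bicral. The Actl6a peaks lay at the other end of the gene from Mrpl47, whereas at Smarcd2, Ss18l1 and Bicral a peak reached within 1 kb of both genes. With peaks counted for the nearest protein-coding gene alone, 12 of the 15 peaks were kept and all 10 members still had one. The outermost peak inside the 10 kb rule was the Smarcd3 one at 5556 bp. Just outside it were a peak 11853 bp from Smarcd1, near an annotated end of Cox14, with a fold of 3.30 (2.38 to 4.46), and one 17097 bp from Ss18l1, near an annotated end of Lsm14b, with a fold of 5.0 (3.73 to 6.58).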

How the data were processed

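Arid1b ChIP and input libraries of primary dental mesenchyme cells, 1 each, were analysed as the deposited peak list. The submitters' processing notes name FastQC 0.11.8, Bowtie2 2.2.5, Picard, MACS2 2.1.1 and the build mm10 but give neither roles nor parameters. For read numbers and duplicate handling, the sources used here give nothing. The deposited list, which has no header, gives for each peak a fold (a linear ratio over input), the -log10 of a p-value and of a q-value, a score (not used further) and a summit offset in bp. All are the authors' own values.

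Whole pileups and expected input levels were solved from fold = (pileup + 1) / (expected + 1) and the Poisson p-value, with a largest error of 0.000162 in -log10 p. A level within 0.001 of the lowest counted as background. Recovery was tested on simulated data. Genes came from the RefSeq table of GRCm38.p6 (protein-coding, chromosomes 1 to 19, X and Y) and start sites and promoters from the RefSeq promoter table, which matched 6 of the 10 members. Coordinates are 1-based. Python 3.11.15, pandas 2.3.3 and scipy 1.17.1 were used. The members, lists and motifs were chosen with earlier results of these data known. Named genes were all members with every peak, protein-coding genes with an end within 1 kb of such a peak, and, of the other lists, the 4 with the highest fold and those with no peak within 10 kb. Gm15860, Gm32059, Mrpl47, Cox14, Lsm14b, Actb and Smarce1 were named after their values were seen.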

Additional observations from a re-analysis of the deposited data

How the results depend on the processing

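With peaks of -log10 q of at least 10, 6 members had a nearby peak (16% of all protein-coding genes), 4 had one at a gene end (10.5%), 6 peaks were left with a median fold of 5.52, and 8 of the other SWI/SNF genes had a nearby peak. With the input level at the genome background, 5 members had a nearby peak (17.4% of all protein-coding genes) and the same number, 5, at a gene end (11%), 6 peaks were left, and of the other SWI/SNF genes 7 had one within 10 kb and 5 at a gene end. With listed start sites in place of gene ends the counts were 5 members and 6 others. The share was 23.9% over protein-coding genes with a promoter window. Bcl7a, Bicra, Bicral, Actb, Smarce1 and Arid2 have no start site listed, Smarcd2 and Smarcc2 have one without a peak within 1 kb, and Smarcd3 was gained. The stricter q and the input rule remove peaks by construction. The highest fold at Smarcd3 was 2.41 with a window of 5 kb or with peaks counted for the nearest gene. The other 44 values for whole lists stayed within 1.5 times, or within the 95% binomial interval of the median for medians, and the other 69 values of single members stayed within their counting intervals. Smarcd2, Smarcd3, Bcl7b and Bicra gave no value at the stricter q, nor, together with Ss18, with input at background. The median pileup was 38 fragments over all peaks and 44 over the member peaks. Compared by their strongest peaks, 15 of the 45 pairs of members had counting intervals apart, and overlap in the others does not show that they are equal. No paired analysis was possible because each group has 1 library.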
